A study of Mus musculus with 19 samples.

Results

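Genes of the hypoxia response and of glycolysis were followed through 19 RNA-seq libraries of differentiating mouse embryonic stem cells. The list named 39 genes, of which 38 were found by name in a table of 38424 gene or locus entries. The expression of Eno1, a glycolytic enolase, was not analysed here, while its promoter windows were counted with those of the list. The 38 comprised 3 transporters of glucose and lactate, 12 glycolytic enzymes, 3 kinases that set glycolytic flux, 6 genes of the HIF subunit and of oxygen sensing, 4 mitochondrial or mitophagy genes, 3 secreted signals, 2 carbonic anhydrases and 5 further genes that respond to HIF.

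Every line expressed a short hairpin RNA, which was a control hairpin or targeted Evx1as, Lhx1os, Fendrr, Nr2f1as, Sox21os or Pou3f3os, all long non-coding RNAs, or the coding gene EVX1. In 12 libraries the cells differentiated in serum-containing medium without LIF, the cytokine that holds stem cells in self-renewal. These were CJ7 cells at day 4 (1 Evx1as control and 2 shEvx1as libraries), CJ9 cells at day 4 (1 EVX1 control and 2 shEVX1), CJ9 cells at day 5 (2 Fendrr controls and 2 shFendrr) and CJ9 cells at day 6 (1 Lhx1os control and 1 shLhx1os); both lines are of strain 129S4/SvJae. In the other 7, cells of the 46c line grew for 4 days in N2B27 medium with 5 nM retinoic acid (2 controls, 2 shNr2f1as, 1 shSox21os and 2 shPou3f3os). Each experiment used 1 line, all cells carried a hairpin, and line, medium and retinoic acid change together, so their parts cannot be told apart. Whether libraries with different numbers came from separate cultures or hairpins is not in the labels; the spread behind each p-value is that between the sequenced libraries and may be technical.

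In cells with enough oxygen, prolyl hydroxylases such as Egln1 and Egln3 mark the HIF-alpha subunit for destruction. When oxygen is low HIF-alpha accumulates, pairs with ARNT and binds short DNA motifs with the core RCGTG, raising genes for glucose uptake, lactate production, mitophagy and vessel growth. Pluripotent stem cells rely strongly on glycolysis, and the pathway is remodelled as they leave pluripotency.

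The authors deposited FPKM values, which count fragments relative to transcript length and to the fragments mapped in a library. Library totals lay between 559050 and 655315 FPKM, relative depth read from the steps of low entries lay between 0.973 and 1.32, and absolute depth is unknown. Among the hairpin targets, the entry 5730457N03Rik (Evx1as) stood at 1.66 FPKM in its control and at 0.354 and 0.290 in the shEvx1as libraries, Evx1 at 53.9 against 30.2 and 37.0 in shEVX1, and Fendrr at 1.10 and 1.49 against 0.358 and 0.0768 in shFendrr. The Lhx1os entry 1500016L03Rik was at 0.0883 in the control and listed at 0 in shLhx1os, too low to check that label. The Pou3f3os entry 2610017I09Rik was at 5.20 and 1.98 in the controls and at 2.40 and 4.13 in shPou3f3os, so the knockdown did not show in it. Nr2f1as and Sox21os were not matched to an entry by name and were not checked. Bulk RNA cannot tell fewer cells of a type from less RNA per cell.

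Promoter sequence was read for the listed genes because HIF binds the cores ACGTG and GCGTG. RefSeq promoter windows (GRCm38.p6, 250 bases before to 50 after each start) were found for 35 of the 39 listed genes, in 49 windows. At least 1 match to either core, on either strand, was present in 79.6% of these windows and in 43.8% of all 32851 windows; matches starting under 5 bases apart were counted as 1 site. Windows with 3 or more sites made up 26.5% against 6.57%. The listed genes' windows also had a higher GC content (median 63.3% against 52.7%), and the full palindrome CACGTG was in 8.16% against 7.15%. A match describes letters and not binding. The 160 bases before the start are given for 5 genes that differ in their response in the day-6 pair and for Tpi1, whose window holds neither core; capitals mark the matches to ACGTG or GCGTG on either strand.
Bnip3: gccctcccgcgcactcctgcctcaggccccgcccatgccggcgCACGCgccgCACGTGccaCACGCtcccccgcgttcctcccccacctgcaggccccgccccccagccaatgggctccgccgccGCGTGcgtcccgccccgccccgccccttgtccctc
Ldha: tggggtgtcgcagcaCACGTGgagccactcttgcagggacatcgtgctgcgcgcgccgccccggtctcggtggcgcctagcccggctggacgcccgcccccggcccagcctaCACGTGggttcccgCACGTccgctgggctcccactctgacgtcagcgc
Pgk1: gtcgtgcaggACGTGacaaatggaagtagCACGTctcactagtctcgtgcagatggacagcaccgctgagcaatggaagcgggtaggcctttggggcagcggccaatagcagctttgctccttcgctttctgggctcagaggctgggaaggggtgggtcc
Slc16a3: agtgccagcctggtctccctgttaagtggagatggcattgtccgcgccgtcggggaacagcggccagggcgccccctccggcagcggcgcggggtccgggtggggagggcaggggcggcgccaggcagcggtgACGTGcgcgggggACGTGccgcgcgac
Slc2a1: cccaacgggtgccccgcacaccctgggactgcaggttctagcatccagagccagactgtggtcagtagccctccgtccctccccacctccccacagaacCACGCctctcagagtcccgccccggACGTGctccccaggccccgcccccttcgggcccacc
Tpi1: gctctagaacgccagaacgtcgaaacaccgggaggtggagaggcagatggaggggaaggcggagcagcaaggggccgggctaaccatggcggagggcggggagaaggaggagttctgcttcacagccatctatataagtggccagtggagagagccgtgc

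These stretches lie at chr7:138909507-138909666 (minus strand, Bnip3), chr7:46845644-46845803 (plus, Ldha), chrX:106186940-106187099 (plus, Pgk1), chr11:120948907-120949066 (plus, Slc16a3), chr4:119108585-119108744 (plus, Slc2a1) and chr6:124814159-124814318 (minus, Tpi1) of GRCm38.p6. Bnip3, which encodes a mitophagy receptor, had 4 sites within the stretch, and Ldha, the muscle-type lactate dehydrogenase subunit, had 3. The glycolytic kinase gene Pgk1, the lactate exporter gene Slc16a3 and the glucose transporter gene Slc2a1 each had 2.

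Levels spanned a wide range across genes. Gapdh, the glycolytic dehydrogenase, was the most abundant member at 3746 to 9066 FPKM, while Car9, a carbonic anhydrase that acidifies the space around cells, ranged from 0.169 to 1.24. Adm, the vasodilator peptide adrenomedullin, varied most between libraries, from 0.0754 to 3.67 FPKM, near the low end of the scale. Ndrg1, a stress-responsive gene at chr15:66760880-66801203 of mm9 (the positions of the table), varied next, from 0.880 to 31.2. Aldoa, a fructose-bisphosphate aldolase, and Pgam1, the phosphoglycerate mutase, varied least, by 1.91 and 1.90 times.

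**Figure D1:**
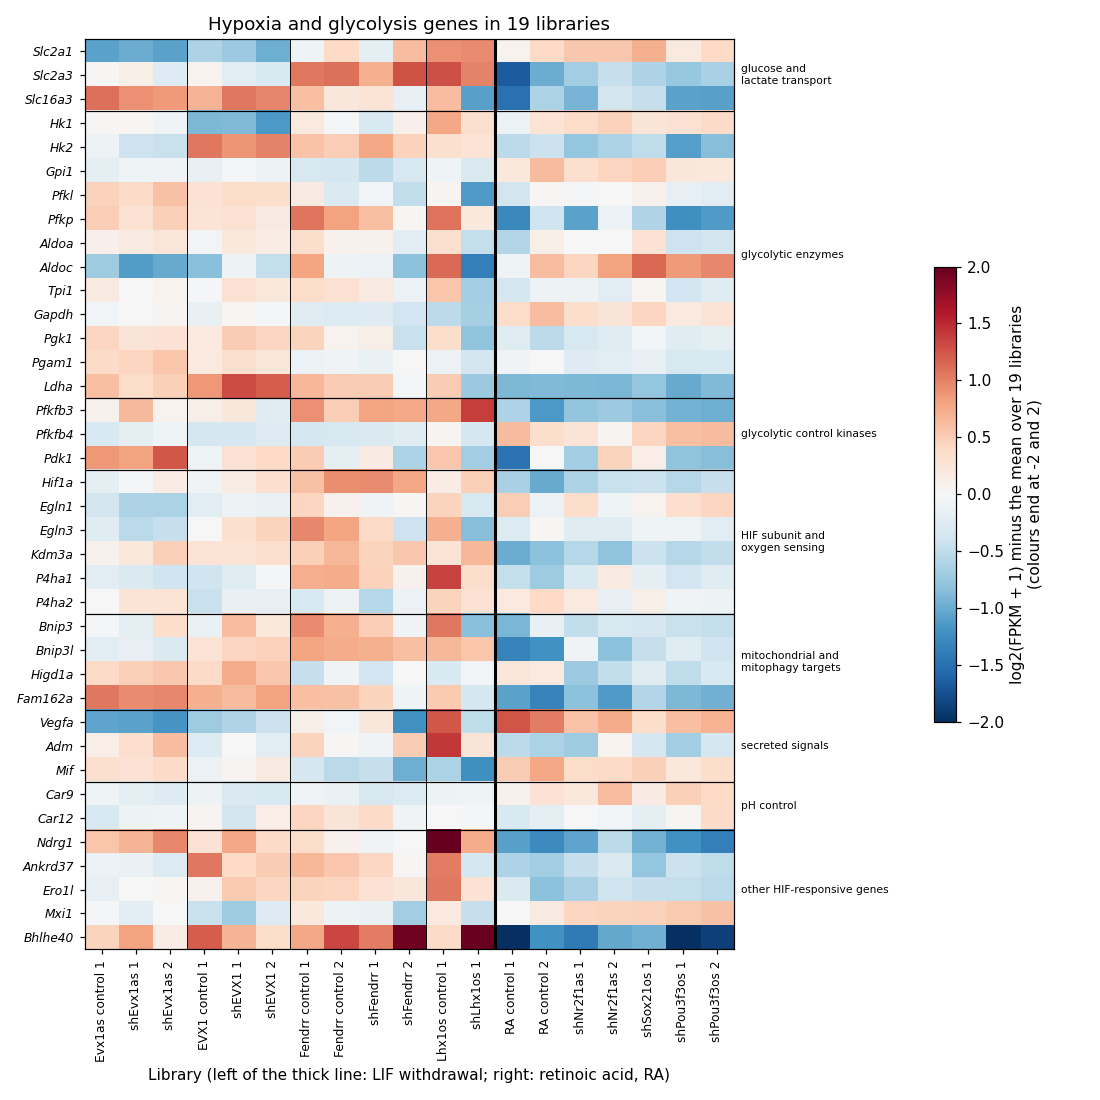
Heat map of the 38 genes (rows, grouped by role) in the 19 libraries (columns), as log2(FPKM + 1) minus the gene's mean over the libraries. The retinoic acid columns are low for Bhlhe40, Slc2a3, Slc16a3, Pfkp and Ldha, and the day-6 control column is high for Ndrg1, Vegfa and P4ha1.

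The 2 kinds of culture were compared through their controls, 5 from LIF withdrawal and 2 from retinoic acid. With limma on log2(FPKM + 1) over the 7 libraries, 18 of 38 genes were called at an adjusted p of 0.05, 14 higher and 4 lower after LIF withdrawal. Of all 14942 entries tested, 37.9% were called (17.6% higher and 20.3% lower). Of the 38, 19 had all 5 LIF-withdrawal values above both retinoic acid values and 5 had all below, beside 25.6% and 27.8% of all entries. The median log2 difference was 0.63 over the 38 genes (0.39 without the first retinoic acid control) and 0.01 over all entries. Values below follow the order CJ7 day 4, CJ9 day 4, the 2 day-5 libraries and day 6, then the 2 retinoic acid controls.

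Among transporters, Slc2a3, a high-affinity glucose transporter, stood at 347, 360, 711, 733 and 840 FPKM after LIF withdrawal and at 107 and 172 with retinoic acid (log2 difference 2.04 ± 0.40 SE, adjusted p = 0.00649). Slc16a3, the lactate exporter MCT4, stood at 139, 104, 98.5, 75.7 and 98.8 against 22.2 and 41.1 (1.71 ± 0.28, adjusted p = 0.00285). For both genes the groups were fully separated. Slc2a1, the ubiquitous glucose transporter, did not separate: 227, 311, 450, 627 and 902 FPKM enclosed the retinoic acid values of 500 and 628 (-0.32 ± 0.48, adjusted p = 0.616).

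Of the 12 glycolytic enzymes, 4 were higher after LIF withdrawal, 2 lower and 6 not called. Ldha, which makes lactate, was at 719, 865, 755, 675 and 674 FPKM against 253 and 258, so that the lowest LIF-withdrawal control lay far above both retinoic acid controls (1.52 ± 0.14, adjusted p = 0.000214). Pfkp, the platelet-type phosphofructokinase, was at 10.5, 8.91, 16.2, 13.2 and 16.3 against 2.35 and 5.18 (1.59 ± 0.31, adjusted p = 0.00638). Hk2, the inducible hexokinase, was at 15.9, 36.5, 25.8, 24.5 and 21.6 against 11.6 and 12.5 (0.94 ± 0.27, adjusted p = 0.0291). The difference was smaller for Pgk1, which makes ATP in glycolysis, at 367, 312, 371, 288 and 348 against 230 and 189 (0.68 ± 0.15, adjusted p = 0.0103). The enzymes were not uniformly higher. Gapdh was lower after LIF withdrawal at 5695, 5360, 5002, 4872 and 4113 FPKM against 7669 and 9066 (-0.74 ± 0.18, adjusted p = 0.0131). Gpi1, the glucose-6-phosphate isomerase, was also lower, at 167, 170, 151, 148 and 179 against 219 and 295 (-0.64 ± 0.15, adjusted p = 0.0141).

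The 2 listed forms of the bifunctional kinase that controls phosphofructokinase went opposite ways. Pfkfb3 was at 14.3, 14.6, 26.1, 19.2 and 23.6 FPKM against 8.39 and 5.46 (1.36 ± 0.28, adjusted p = 0.00762). Pfkfb4 was lower, at 1.03, 0.999, 0.981, 1.01 and 1.63 against 2.89 and 2.21 (-0.74 ± 0.19, adjusted p = 0.0175). Pdk1, which blocks pyruvate entry into mitochondria, was not called; its values of 17.9, 8.76, 13.7, 8.06 and 13.9 overlapped those of the retinoic acid controls, 2.70 and 9.24 (1.08 ± 0.43, adjusted p = 0.0808).

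Hif1a, the oxygen-regulated HIF subunit, was at 8.60, 9.29, 15.2, 19.6 and 11.1 FPKM against 5.89 and 4.36 (1.12 ± 0.32, adjusted p = 0.0259). Kdm3a, a histone demethylase induced by HIF, was at 7.94, 9.21, 10.7, 12.4 and 9.24 against 3.24 and 3.81 (1.26 ± 0.20, adjusted p = 0.0025). In both genes every LIF-withdrawal control lay above both retinoic acid controls. Egln3 was at 3.01, 3.73, 8.19, 7.18 and 6.76 against 2.91 and 3.82 and overlapped (adjusted p = 0.234), and Egln1, P4ha1 and P4ha2 were not called.

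Fam162a, a mitochondrial HIF target, had the smallest adjusted p of the 38, at 205, 162, 151, 149 and 142 FPKM against 46.5 and 38.3 (1.90 ± 0.17, adjusted p = 0.000205). Bnip3l, a mitophagy receptor, was at 22.0, 31.6, 45.8, 44.1 and 41.5 against 9.71 and 10.6 (1.72 ± 0.28, adjusted p = 0.00291). In the retinoic acid knockdown libraries, outside this comparison, Bnip3l was at 14.3 to 24.7, the highest above the CJ7 control. Its relative Bnip3 did not overlap but was not called, at 3.37, 3.02, 7.47, 6.27 and 8.21 against 1.34 and 2.98 (1.05 ± 0.39, adjusted p = 0.0685).

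Among secreted signals, Mif, a cytokine, was lower after LIF withdrawal at 2218, 1641, 1403, 1224 and 1142 FPKM against 2544 and 3031 (-0.91 ± 0.26, adjusted p = 0.0271). Vegfa, the vessel growth factor and a classical HIF target, was at 4.48, 5.95, 11.3, 9.86 and 25.7 against 26.1 and 21.9. Its 4 controls of day 4 and day 5 lay under both retinoic acid controls and its day-6 control between them (-1.23 ± 0.54, adjusted p = 0.106). Adm, Car9 and Car12, a second carbonic anhydrase, were not called.

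The difference was largest in Bhlhe40, a transcriptional repressor, at 27.0, 46.8, 34.1, 51.1 and 25.8 FPKM against 2.95 and 7.93 (2.62 ± 0.38, adjusted p = 0.00165). Ndrg1 was at 6.08, 4.93, 5.27, 4.13 and 31.2 against 1.28 and 1.01 (1.99 ± 0.66, adjusted p = 0.0466). Ankrd37, a small ankyrin-repeat gene, was at 1.72, 5.17, 3.68, 3.31 and 5.05 against 0.926 and 0.822 (1.29 ± 0.32, adjusted p = 0.0163). Without either one of the retinoic acid controls, 9 or 10 genes were called instead of 18. Bhlhe40, Bnip3l, Fam162a, Kdm3a, Ldha and Slc16a3 were called in all 17 settings run, and these 6 were named after their values were seen.

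**Figure D2:**
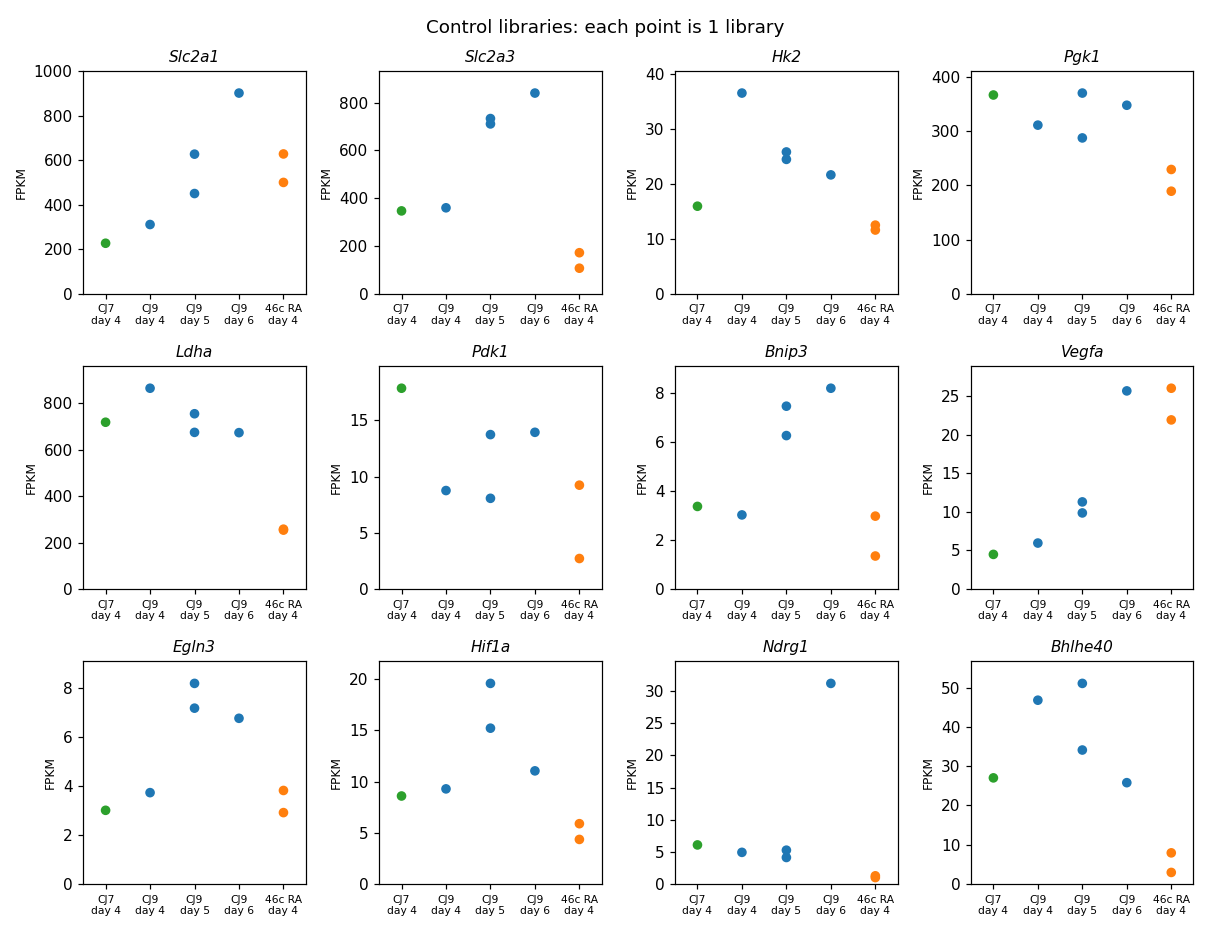
FPKM (vertical axes, from 0) of 12 of the genes in the 5 LIF-withdrawal controls (green CJ7, blue CJ9, by day) and the 2 retinoic acid controls (orange), 1 point per library. Ldha, Slc2a3 and Bhlhe40 are fully separated between the cultures, whereas Slc2a1 and Pdk1 overlap and Ndrg1 is far higher in the day-6 control, at 31.2, than elsewhere.

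**Figure D3:**
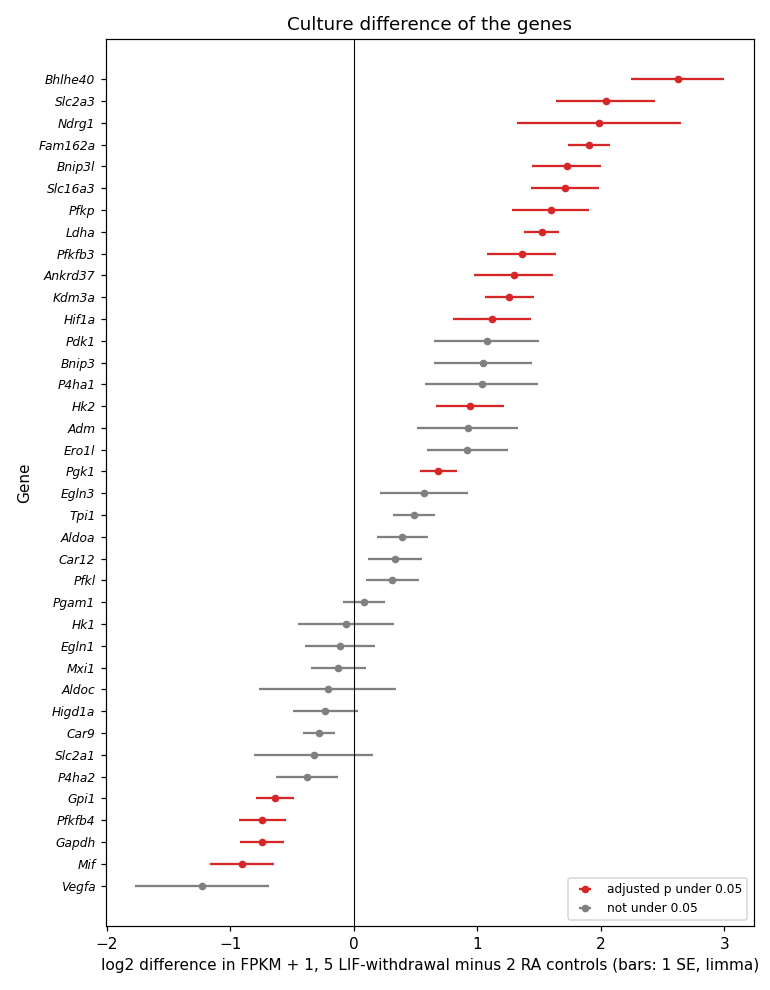
Log2 difference between the LIF-withdrawal and the retinoic acid controls for each of the 38 genes, with bars of 1 standard error from limma; red points were called. Bhlhe40 is farthest to the side of LIF withdrawal at 2.62 and Vegfa farthest to the other side at -1.23, the latter not called.

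The 2 retinoic acid controls also differed from each other by at least 2-fold in Pfkp, Pdk1 and Bhlhe40, and their summed FPKM of 8 pluripotency markers was 237 and 627. In order of that sum over the 7 retinoic acid libraries (237, 261, 267, 324, 440, 479 and 627), Pdk1 stood at 2.70, 4.90, 4.74, 5.45, 10.3, 13.1 and 9.24 FPKM. Slc16a3, in the same order, stood at 22.2, 30.1, 29.7, 33.1, 46.4, 49.7 and 41.1. Both genes were lowest in the control with the smallest sum, and their 3 highest values came from the same 3 libraries, which carry different hairpins (shSox21os, shNr2f1as and control). Not all listed genes followed that order. Ldha stood at 253, 235, 258, 255, 279, 252 and 258, and Slc2a3 at 107, 201, 217, 212, 223, 249 and 172. In the LIF-withdrawal libraries the sum of the pluripotency markers was 363 to 1058. Sox2 made up 169 of the 237 in the first retinoic acid control, but 37.4 of the 363 in shLhx1os. The sums of the 2 cultures therefore weigh different markers and are not a like measure. The part of these markers in the differences between cultures was not tested.

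Genes of the same pathways outside the list gave a mixed picture between cultures. The counts called below rest on few genes and stand beside 17.6% of all entries called higher and 20.3% called lower. Of 33 further HIF-responsive genes tested, 9 were higher after LIF withdrawal and 2 lower; Igfbp3, which binds insulin-like growth factors, differed by 4.47 on the log2 scale (adjusted p = 0.00182) and Flt1, a VEGF receptor, by 2.77 (adjusted p = 0.000206). Of 9 further genes of the HIF machinery, none was higher and 3 were lower, namely the HIF partner Arnt2 (-2.16, adjusted p = 0.0037), the prolyl hydroxylase Egln2 (-0.89, adjusted p = 0.00314) and the asparaginyl hydroxylase Hif1an (-0.70, adjusted p = 0.0102). Of 11 further glycolysis genes 1 was higher and 3 lower, among them the insulin-responsive transporter Slc2a4 (-2.10, adjusted p = 0.000182) and the hexokinase relative Hkdc1 (-1.86, adjusted p = 0.00029). Mpc1, a subunit of the mitochondrial pyruvate carrier, was 2.59 higher (adjusted p = 0.00253), with its retinoic acid controls at only 0.737 and 0.760 FPKM.

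Among CJ9 controls the day of differentiation was compared, with 1 library at day 4, 2 at day 5 and 1 at day 6; day and experiment cannot be told apart. From day 4 to day 5, 3 of 38 genes rose and none fell, against 7.31% of all entries called, 5.94% higher and 1.38% lower. P4ha1, a collagen prolyl hydroxylase induced by HIF, went from 6.57 FPKM to 15.6 and 15.7 (1.14 ± 0.23, adjusted p = 0.0158 with limma). Hk1, the housekeeping hexokinase, went from 5.02 to 11.9 and 10.1 (0.99 ± 0.22, adjusted p = 0.024). Hif1a went from 9.29 to 15.2 and 19.6 (0.83 ± 0.21, adjusted p = 0.0379). In each, both day-5 libraries lay above the day-4 library.

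Other genes differed by similar amounts without passing the test. Aldoc, the brain-type aldolase, was at 4.44 FPKM at day 4 and at 15.7 and 7.99 at day 5 (1.17 ± 0.40, adjusted p = 0.100), the 2 day-5 libraries being far apart. Slc2a3 was at 360, then 711 and 733 (1.00 ± 0.28, adjusted p = 0.0532), Bnip3 at 3.02, then 7.47 and 6.27 (0.96 ± 0.35, adjusted p = 0.116), and Egln3 at 3.73, then 8.19 and 7.18 (0.87 ± 0.27, adjusted p = 0.0789). All 6 genes of the HIF subunit and oxygen-sensing group had both day-5 values above day 4, a separation seen in 21 of the 38 genes and in 49.4% of all entries; 11 of the 38 and 30.7% of all entries were separated the other way. With only the libraries of the 2 experiments in the model, none of the 3 genes was called. Without the first day-5 control Hif1a alone was called, and without the second none was.

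From day 5 to day 6, 19 of the 38 genes lay above both day-5 libraries and 12 below, beside 35.5% and 42.4% of all entries. Ndrg1 alone was called, against 3.61% of all entries, 1.61% higher and 2.01% lower. It went from 5.27 and 4.13 FPKM to 31.2 (2.51 ± 0.26, adjusted p = 0.00148 with limma), though with only the libraries of the day-5 and day-6 experiments in the model it was not called. An overlapping entry, Gm17035, was at 6.48 and 5.28 at day 5 and at 66.6 at day 6, and reads of the 2 cannot be told apart if strand was not used in counting. Vegfa was at 11.3 and 9.86, then 25.7 (1.21 ± 0.41, adjusted p = 0.129), and Slc2a1 at 450 and 627, then 902 (0.76 ± 0.29, adjusted p = 0.173). Hk1 was at 11.9 and 10.1, then 18.2 (0.68 ± 0.22, adjusted p = 0.114), and Aldoc at 15.7 and 7.99, then 20.2 (0.79 ± 0.40, adjusted p = 0.306). Bhlhe40 was lower, at 34.1 and 51.1, then 25.8 (-0.67 ± 0.49, adjusted p = 0.498). Ldha was nearly level, at 755 and 675, then 674 FPKM, and Pgk1 overlapped, at 371 and 288, then 348.

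The day-6 control had the highest value of the 12 LIF-withdrawal libraries for 14 of the 38 genes, and of all 19 libraries for 10, beside 14.7% and 7.92% of all entries tested. Gys1, a glycogen synthase on the list of further HIF-responsive genes, rose at both steps, by 0.73 (adjusted p = 0.018) and 0.81 (adjusted p = 0.0191). Igfbp3 was 2.34 lower on the log2 scale at day 6 than at day 5 (adjusted p = 0.037).

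The day-4 controls of CJ7 and CJ9, 1 library each and not tested, differed in a few genes. Ankrd37 was at 1.72 FPKM in CJ7 and 5.17 in CJ9, Hk2 at 15.9 and 36.5, Hk1 at 10.4 and 5.02, and Pdk1 at 17.9 and 8.76, each a difference of about 2-fold or more. Slc2a3 was nearly level at 347 and 360. Line and experiment cannot be told apart here.

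The widest differences within an experiment were in the day-6 Lhx1os pair, which had 1 library per arm and no replicate check. Among the 34 genes with at least 5 FPKM in either library, 13 were at least 2-fold lower in the shLhx1os library and 1 was at least 2-fold higher. Of all 9015 entries at that level, 7.67% were as much lower and 5.78% as much higher. The median log2 change was -0.77 over the 34 genes and -0.09 over all entries. Between replicates of the 7 groups with 2 libraries, 0 to 3 of the listed genes and 0.684 to 5.73% of entries differed by 2-fold.

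All 12 glycolytic enzymes were lower in shLhx1os, as were 58.1% of the 9015 entries, and 5 of the 12 were lower by at least 2-fold. Aldoc was at 20.2 FPKM in the control and 2.76 in shLhx1os, 7.34 times lower. Ldha was at 674 and 283, Tpi1, the triosephosphate isomerase, at 443 and 188, Pgk1 at 348 and 155, and Pfkl, the liver-type phosphofructokinase, at 74.8 and 32.1. Gapdh (4113 and 3746), Hk2 (21.6 and 20.9) and Gpi1 (179 and 155) were nearly level. Slc16a3 was at 98.8 in the control and 29.8 in shLhx1os, so lactate export and lactate production genes were lower together. Of the glucose importers, Slc2a1 was level at 902 and 918 FPKM, the highest values of all 19 libraries, and Slc2a3 was 1.24 times lower, at 840 and 679.

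HIF targets with other roles were lower by similar or larger factors. Bnip3 was at 8.21 FPKM in the control and 1.48 in shLhx1os, 5.55 times lower. Ndrg1 was at 31.2 and 7.12, Egln3 at 6.76 and 1.63, Ankrd37 at 5.05 and 1.33, Vegfa at 25.7 and 7.002, Pdk1 at 13.9 and 5.36, and P4ha1 at 24.6 and 11.8. Ndrg1's neighbour Gm17035 was lower as well, at 66.6 and 11.1. Adm was at 3.67 and 1.10, under the 5 FPKM level. Hif1a itself was at 11.1 and 13.999, and Bnip3l at 41.5 and 38.6. Kdm3a was at 9.24 and 12.4, Pfkfb3 at 23.6 and 36.4, and Bhlhe40 was the 1 gene higher by over 2-fold, at 25.8 and 79.9.

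**Figure D4:**
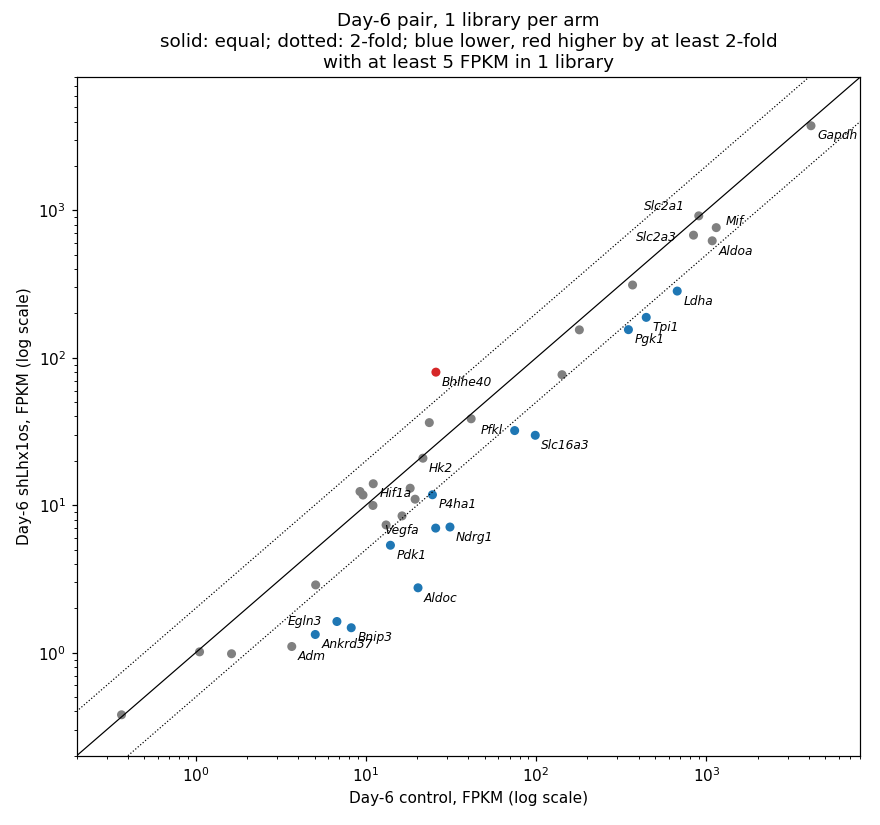
FPKM of the 38 genes in the day-6 control (horizontal axis) and the day-6 shLhx1os library (vertical axis), both on log scales, 1 library per arm. The 13 genes at least 2-fold lower lie under the lower dotted line in blue, from Ankrd37 at 5.05 and 1.33 to Ldha at 674 and 283; Bhlhe40 lies above the upper line in red and Slc2a1 on the diagonal.

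Both libraries of the pair stood at the edge of the LIF-withdrawal range. Against the other 10 LIF-withdrawal libraries, the day-6 control was above all 10 in 15 of the 38 genes and shLhx1os below all 10 in 15, 39.5% each; over entries with at least 5 FPKM in the pair the shares were 22.0% and 24.6%. Of the 13 genes at least 2-fold lower, shLhx1os was below the other 10 in 10, the control above them in 6, and both held in 3 (Aldoc, Tpi1 and Bnip3). Of all 691 entries at least 2-fold lower, shLhx1os was below the other 10 in 46.6%, beside 76.9% of the 13, the control above them in 56.0%, beside 46.2%, and both held in 109. Ldha at 283 lay below a range of 468 to 1174 in the other 10, and Slc16a3 at 29.8 below 57.4 to 139. For Vegfa the shLhx1os value of 7.002 lay within the others' 3.90 to 12.2 and the control's 25.7 above it, and Ndrg1 and P4ha1 had the same pattern. Bhlhe40 at 79.9 was just above the others' highest value, 78.0 in the second shFendrr library.

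Nearly all of the listed genes with a window, 32 of 35, held a core, so presence of a core could hardly differ between subsets. Of the 13 lower genes 12 had a window and 11 of these a site, Tpi1 being the exception in the printed sequences; of the other 21, 18 had a window and 17 a site. Slc2a1, with 2 sites, was level in the pair, while Slc16a3 and Pgk1, also with 2, were lower.

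Cell-type markers differed between the 2 libraries at the same time. The sum of 6 lateral mesoderm markers was 282 FPKM in the control and 22.4 in shLhx1os, with Hand1 at 204 and 10.5, while over the other 10 LIF-withdrawal libraries it ranged from 15.4 to 194. The sum of 4 neuronal markers was 72.8 and 191 (190 to 493 in the other 10), and that of 6 mitosis genes 366 and 198 (323 to 474). In the retinoic acid libraries the neuronal sum was 102 to 204, and its members went opposite ways between cultures. Tubb3 was at 29.3 to 51.4 FPKM with retinoic acid and 3.94 to 29.2 after LIF withdrawal, Nefm at 1.44 to 3.36 and 4.31 to 51.6. The sum is therefore not read as a share of neurons. Of the neural progenitor markers, Sox1, Pax6, Fabp7 and Hes5 were under 1 FPKM in both libraries of the pair, and Nes was at 6.02 and 55.0. The trophoblast list, dominated by the epithelial keratin Krt8, was at 1247 and 2204, while Cdx2, Tfap2c and Plac1 of that list were at least 2-fold lower; Elf5 was under 1 FPKM in the control. The part of these shifts in the values of the 38 genes was not tested.

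Other genes of the pathways did not all go the same way. Of 25 further HIF-responsive genes at 5 FPKM, 2 were at least 2-fold lower (Cxcr4, a chemokine receptor, at 12.3 and 1.79, and Gys1 at 37.96 and 18.3) and 4 at least 2-fold higher. Among the latter were the peptide gene Edn1 (2.72 and 32.2) and the collagen-modifying genes Lox (0.0839 and 7.13) and Plod2 (9.36 and 21.4). Of 9 further glycolysis genes 3 were lower, including the lactate transporter gene Slc16a1 (42.7 and 8.72) and the muscle-type phosphofructokinase gene Pfkm (23.6 and 9.13), and 1 higher.

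With the Fendrr hairpin at day 5, none of the 38 genes was called by limma, against 0.147% of all entries (0.0535% higher and 0.0937% lower). At an unadjusted p under 0.05 there were 9 of the 38, all lower, and 1051 entries in all. The median log2 change was -0.21 over the 38 genes and 0.00 over all entries. Of the 38, 14 were lower in both shFendrr libraries than in both controls and 1 was higher, where 15.7% and 14.4% of all entries were.

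Egln3 was at 8.19 and 7.18 FPKM in the controls and at 5.15 and 2.53 in shFendrr (-0.89 ± 0.22, adjusted p = 0.352). Aldoc was at 15.7 and 7.99 against 7.98 and 4.51 (-0.80 ± 0.33, adjusted p = 0.680), Bnip3 at 7.47 and 6.27 against 5.24 and 3.22 (-0.61 ± 0.28, adjusted p = 0.715), and Pfkp at 16.2 and 13.2 against 11.4 and 7.37 (-0.62 ± 0.33, adjusted p = 0.753). In all 4 the second shFendrr library was the lower one. Mxi1, a MYC antagonist induced by HIF, was at 5.19 and 3.97 against 3.86 and 2.28 (-0.48 ± 0.21, adjusted p = 0.706), and P4ha1 at 15.6 and 15.7 against 12.8 and 9.62 (-0.46 ± 0.19, adjusted p = 0.680).

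The 2 shFendrr libraries differed from each other by at least 2-fold in Egln3 and in Vegfa, which was at 11.3 and 9.86 FPKM in the controls and at 12.2 and 3.90 in shFendrr. Without the first shFendrr library, Egln3 (-1.29, adjusted p = 0.0132), Vegfa (-1.24, adjusted p = 0.0132) and Ldha (-0.61, adjusted p = 0.0372) were called lower. Without the second, none of the 38 was. Ldha was at 755 and 675 in the controls and at 675 and 468 in shFendrr. Hif1a was at 15.2 and 19.6 against 19.8 and 17.5 and did not separate.

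In the second shFendrr library, all 13 genes that were 2-fold lower in shLhx1os lay below the mean of its own controls (median log2 change -0.65), and in the first, 12 did (median -0.15). In the shEvx1as libraries 12 and 9 did (medians -0.16 and -0.13). Of the 691 entries lower by as much, 93.2% lay below the controls in the second shFendrr library, 71.8% in the first, and 69.8% and 68.3% in shEvx1as. Across the 38 genes the changes in the second library and in shLhx1os had Pearson's r = 0.778 and Spearman's rho = 0.745, over all 14942 entries 0.635 and 0.623; for the first library the values over the 38 were 0.363 and 0.319, and over all entries 0.141 and 0.124. Pearson's r with shLhx1os was 0.636 and 0.0396 over the 38 for the 2 shEvx1as libraries (0.266 and 0.197 over all entries) and -0.543 and -0.534 for those of shEVX1 (-0.0863 and -0.139). These comparisons share no library, genes are not independent replicates, and shLhx1os is 1 library. Slc2a1 was at 728 FPKM, Slc2a3 at 823 and Bhlhe40 at 78.0 in the second shFendrr library, not below its controls (450 and 627, 711 and 733, 34.1 and 51.1). The lateral mesoderm sum was 179 and 194 in the controls and 88.1 and 49.4 in shFendrr, the trophoblast sum 981 and 1337 against 898 and 1911, the latter again mainly Krt8. The part of these markers was not tested.

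**Figure D5:**
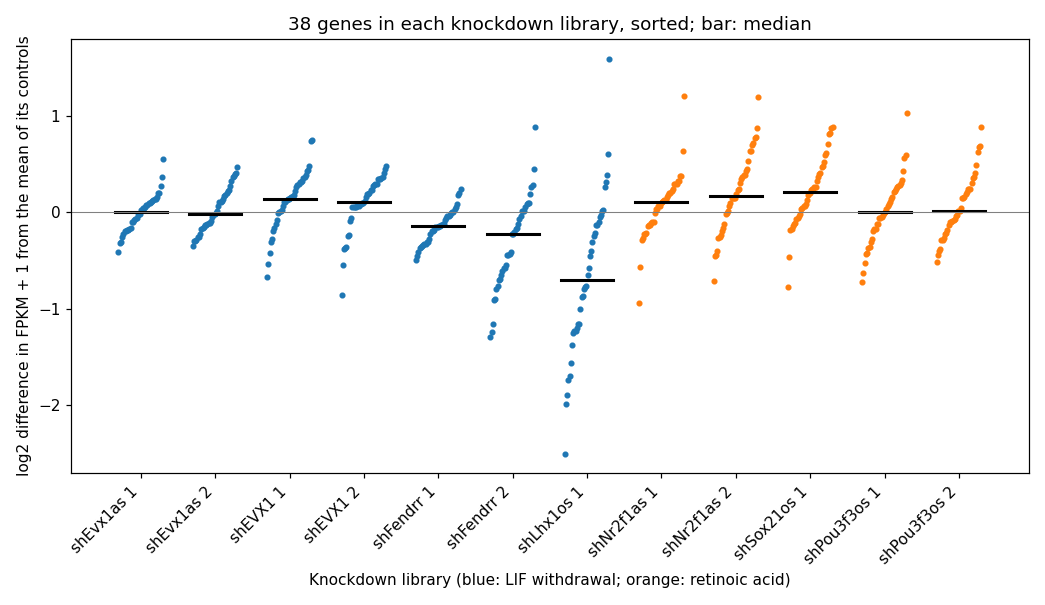
Log2 change of each of the 38 genes in each knockdown library against the mean of its own controls, on the log2(FPKM + 1) scale, sorted within a library, with the median as a black bar (blue, LIF withdrawal; orange, retinoic acid). The shLhx1os median is -0.70 over all 38 genes, and the shFendrr medians are -0.14 and -0.22.

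In the day-4 knockdowns after LIF withdrawal no gene of the 38 passed the test. In shEvx1as, none of the 38 was called by limma, against 0.00669% of all entries, and none had an unadjusted p under 0.05 (654 entries in all did). The median log2 change was 0.02 over the 38 genes and 0.05 over all entries. Both shEvx1as values lay above the control in 13 of the 38 genes, with 44.6% of all entries, and below it in 14, with 26.3%. Among these, Hk2 was at 15.9 FPKM in the control and 12.6 and 12.3 in shEvx1as (-0.33 ± 0.17), and Hif1a at 8.60 against 9.54 and 11.02 (0.23 ± 0.21). P4ha2, a second collagen prolyl hydroxylase, was at 7.81 against 9.69 and 9.67 (0.28 ± 0.21). Each of these genes had an adjusted p rounding to 1. Ndrg1 was at 6.08 FPKM in the control against 6.75 and 8.40, Kdm3a at 7.94 against 8.84 and 10.8, and Egln1 at 10.6 against 8.78 and 8.73. Those genes were not called either.

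In shEVX1 none was called either, against 0.00669% of all entries; Ankrd37 alone had an unadjusted p under 0.05, of 496 entries. Ankrd37 was at 5.17 FPKM in the control and 2.89 and 3.23 in shEVX1 (-0.61 ± 0.20), and Bhlhe40 at 46.8 against 32.1 and 25.5 (-0.69 ± 0.49). Ldha was at 865 against 1174 and 1097 (0.39 ± 0.18), Bnip3 at 3.02 against 5.76 and 4.11 (0.55 ± 0.35), and Aldoc at 4.44 against 8.06 and 6.00 (0.55 ± 0.40). Each of these had an adjusted p rounding to 1. Pdk1 was at 8.76 FPKM in the control against 11.8 and 12.7 in shEVX1 and was not called. Both shEVX1 values lay above the control in 25 of the 38 genes, with 46.7% of all entries, and below it in 6, with 26.5%. Of the 13 genes lower in shLhx1os, 1 lay below the control in each shEVX1 library, beside 33.9% and 38.2% of the 691 entries.

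The 3 retinoic acid knockdowns share their 2 controls, so their values are given side by side. By limma, shPou3f3os had 1 gene called, higher, against 2.32% of all entries (1.6% higher and 0.716% lower). shNr2f1as had none, against 0.676% (0.422% and 0.254%), and shSox21os none, against 0.0669% (0.0468% and 0.0201%). At an unadjusted p under 0.05 there were 8, 6 and 6 of the 38 genes in shPou3f3os, shNr2f1as and shSox21os, and 3109, 2699 and 1706 of all entries. In the same order, 13, 11 and 20 genes lay above both controls (31.5%, 25.5% and 37.2% of all entries) and 7, 8 and 6 below (21.6%, 20.8% and 30.7%). The median log2 changes over the 38 were 0.01, 0.22 and 0.22, and over all entries 0.04, 0.04 and 0.03.

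The called gene was Bnip3l, at 9.71 and 10.6 FPKM in the controls and at 21.8 and 19.6 in shPou3f3os (0.96 ± 0.19, adjusted p = 0.0388). In shNr2f1as it was at 24.7 and 14.3 (0.83 ± 0.19, adjusted p = 0.0672) and in shSox21os at 18.6 (0.81 ± 0.24, adjusted p = 0.242). All 5 knockdown libraries were thus above both controls. The shPou3f3os call was lost without either shPou3f3os library or without the second control. Without the second shNr2f1as library, Bnip3l was called in shNr2f1as (1.20, adjusted p = 0.00723).

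Higd1a, a mitochondrial gene induced by hypoxia, lay the other way, at 14.6 and 14.1 FPKM in the controls, 6.96 and 8.36 in shNr2f1as (-0.83 ± 0.17, adjusted p = 0.0584), 8.28 and 9.70 in shPou3f3os (-0.62 ± 0.17, adjusted p = 0.0793) and 10.1 in shSox21os. Slc2a3 was at 107 and 172 in the controls, 212 and 249 in shNr2f1as (0.76 ± 0.23, adjusted p = 0.125), 201 and 217 in shPou3f3os (0.62 ± 0.23, adjusted p = 0.150) and 223 in shSox21os (0.71 ± 0.28, adjusted p = 0.364). Vegfa was at 26.1 and 21.9, then 15.8 and 17.9, 16.3 and 17.3, and 13.5, with adjusted p of 0.485, 0.444 and 0.508. None of these 3 was called, except that with the replicate number as a block Higd1a was called in shNr2f1as and shPou3f3os, and Hk2 in shPou3f3os. Over all 5 knockdown libraries, 7 of the 38 genes lay above both controls and 5 below, or 18.4% and 13.2%, beside 15.8% and 12.6% of all entries.

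Further genes without overlap were not called. Hk2 was at 11.6 and 12.5 FPKM in the controls and 7.44 and 9.05 in shPou3f3os (-0.50 ± 0.14, adjusted p = 0.0725), and at 9.67 and 10.7 in shNr2f1as, also below both controls. P4ha1 was at 6.19 and 5.11 in the controls and 7.11 and 10.4 in shNr2f1as (0.54 ± 0.19, adjusted p = 0.162), and it lay above both controls in all 5 knockdown libraries. Hk1 was at 9.37 and 12.5 against 13.5 and 14.5 in shNr2f1as (0.34 ± 0.18, adjusted p = 0.346) and 12.9 and 13.6 in shPou3f3os. Aldoc was at 8.13 and 13.9 in the controls, 20.5 in shSox21os (0.88 ± 0.40, adjusted p = 0.438) and 16.6 and 17.8 in shPou3f3os (0.64 ± 0.33, adjusted p = 0.293). In shSox21os, Pdk1 was at 10.3 against 2.70 and 9.24 (0.88 ± 0.59, adjusted p = 0.620) and Bhlhe40 at 9.52 against 2.95 and 7.93 (0.82 ± 0.49, adjusted p = 0.572), both controls being far apart.

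The direct difference between shNr2f1as and shPou3f3os, in which the controls cancel, called none of the 38 genes, against 0.00669% of all entries; 2 of the 38 and 820 entries had an unadjusted p under 0.05. Both shNr2f1as values were above both of shPou3f3os in 14 genes (18.1% of all entries) and below in 6 (22.6%). The shNr2f1as libraries had Bhlhe40 at 6.71 and 9.15 FPKM, those of shPou3f3os at 3.41 and 4.63 (0.83 ± 0.40, adjusted p = 0.884), Pdk1 at 5.45 and 13.1 against 4.90 and 4.74 (0.71 ± 0.48, adjusted p = 0.909), and Pfkp at 2.91 and 6.52 against 2.51 and 2.73 (0.58 ± 0.33, adjusted p = 0.892). Slc16a3 was at 33.1 and 49.7 against 30.1 and 29.7 (0.43 ± 0.27, adjusted p = 0.898), Aldoa at 860 and 871 against 653 and 674 (0.38 ± 0.19, adjusted p = 0.884), and Aldoc at 12.01 and 15.9 against 16.6 and 17.8 (-0.30 ± 0.33, adjusted p = 0.947). Only the second shNr2f1as library was clearly apart from shPou3f3os in Pdk1 and Pfkp.

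Among the regulators of glycolysis, Myc, a transcription factor that drives glycolytic genes, fell in all 3 knockdowns. Its controls stood at 35.2 and 25.1 FPKM, the shNr2f1as libraries at 7.70 and 8.48 (-1.76, adjusted p = 0.016), those of shPou3f3os at 7.38 and 11.1 (-1.61, adjusted p = 0.0126) and that of shSox21os at 7.06 (-1.93, adjusted p = 0.0359). The regulator list was not uniform. Mycn stood at 61.6 and 76.2 in the controls, 84.8 and 91.0 in shNr2f1as, 88.8 and 78.9 in shPou3f3os and 75.2 in shSox21os. Lin28a stood at 215 and 194 in the controls and at 229 to 287 in the knockdown libraries. No glycolytic enzyme among the 38 was called in these comparisons, and a link to Myc was not tested. Atf4, the stress-response factor, fell in shNr2f1as (-0.75, adjusted p = 0.038) and shPou3f3os (-0.88, adjusted p = 0.0243), as did 3 further genes of 14 on an integrated stress list in shPou3f3os (Nupr1, -1.74, adjusted p = 0.0412; Sesn2, -0.87, adjusted p = 0.0463; Trib3, -1.29, adjusted p = 0.0446). The 1 gene of that list called higher was the cystine transporter Slc7a11, in both (1.47, adjusted p = 0.0433, and 1.60, adjusted p = 0.0266). Its controls were under 1 FPKM, at 0.640 and 0.0933, against 3.50 and 2.06 in shNr2f1as and 2.60 and 3.56 in shPou3f3os. With or without a call, 12 of the 14 were lower in shNr2f1as and 13 in shPou3f3os. Of all entries, 55.2% were higher in each of these comparisons, and 0.254% and 0.716% were called lower. Both comparisons use the same 2 controls, so their counts are not independent. Mpc1 (1.39, adjusted p = 0.0463) and Pdha1, a pyruvate dehydrogenase subunit (0.48, adjusted p = 0.0409), rose in shPou3f3os, and Ldhb, the heart-type lactate dehydrogenase subunit, fell (-0.81, adjusted p = 0.0446). The Mpc1 controls were also under 1 FPKM, at 0.737 and 0.760, against 3.26 and 3.97 in shPou3f3os.

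Some of these genes share sequence or position with others in the table. Gapdh, Pgk1, Ldha, Tpi1, Mif and Aldoa have processed copies elsewhere in the genome among which reads could be split. Besides Ndrg1 with Gm17035, Pfkl overlaps AK192985 (59.3 FPKM in the day-6 control and 29.5 in shLhx1os), Ankrd37 overlaps Ufsp2 (17.6 and 12.98), Pfkp overlaps Pitrm1 (37.5 and 50.1) and Tpi1 overlaps Spsb2 (11.3 and 11.2). Mif overlaps the unnamed locus XLOC_001878 (at most 156 FPKM in any library), Slc2a1 overlaps XLOC_017085 (at most 5.46) and Car9 overlaps Gm12454 (at most 4.94). The remaining overlapping entries stayed under 5 FPKM.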

How the data were processed

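Poly(A) RNA-seq libraries (stranded kit, per the labels' protocols) were analysed as the FPKM values that the authors deposited. CASAVA and TopHat2 2.0.11 and the builds mm10 and mm9 are named per the submitters' processing notes. The quantifier, annotation and strand setting were not given in the sources used here; positions matched mm9 and were not mixed with GRCm38. Of 38424 entries, 11588 were unnamed loci. No counts were used.

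The filter asked for 1 FPKM or more in 2 or more libraries (14942 entries; all 38 genes passed). log2(FPKM + 1), which understates changes of low genes, was fitted with limma 3.58.1 in R 4.3.3, with 12 group means over 19 libraries, a mean-dependent variance prior, two-sided moderated tests and Benjamini-Hochberg adjustment at 0.05. Lone libraries are assumed to vary like the other groups. The culture comparison used the 7 controls alone. The Lhx1os pair was not tested. The values of 1 further gene are not reported here. Scripts were tested on simulated data.

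Genes and lists were chosen with earlier results of these data known. Per comparison, called genes were named, plus the 6 with the largest change among those without overlap and at 5 FPKM; reference genes were added across cultures and days. Alternatives covered the pseudocount, filter, scaling, variance prior, libraries modelled, each replicate and the replicate block.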

Additional observations from a re-analysis of the deposited data

Results flagged for a closer look

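In the 5 LIF-withdrawal controls, 38 genes were searched for a library far from the rest, measured as the gap to its nearest neighbour divided by the whole range on the log2(FPKM + 1) scale; chance flags about 1 in 20 groups. The day-6 control stood apart in 2 of the 38 genes, close to that rate, so the number of flags is no result about this control. The 5 controls also differ in line and day, for which the rate makes no allowance. Pfkfb4 was at 1.63 FPKM there (gap over range 0.908), against 0.981 to 1.03 in the other 4. Ndrg1 was at 31.2 FPKM (0.825), against 4.13 to 6.08, and its overlapping entry Gm17035 was at 66.6. This control is 1 library and the only one of its day.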

How the results depend on the processing

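Of 114 counts of called genes under other settings, 99 stayed within 1.5 times of the main value and 15 did not. The Bnip3l call in shPou3f3os became 0 genes with no filter on low values and 0 with only its experiment in the model. The counts for day 5 against day 4 and for day 6 against day 5 were both 0 with only the experiments compared. Leaving out 1 library gave 0 to 3 genes in shFendrr, 0 to 1 in shNr2f1as, 0 to 1 in shPou3f3os, 0 to 1 for day 5 against day 4 and 9 to 19 for the cultures. Of the medians over the 38 genes under other settings, 98 moved by less than the replicate spread and 13 by more. Among these, the shEvx1as median was -0.05 with the median-ratio scaling and -0.01 without its first library, and that of shNr2f1as was -0.01 without the first control and 0.11 without its second library. The shPou3f3os median was 0.13 without the second control. Groups of 1 library could not be left out of the day and knockdown comparisons.

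Same-numbered libraries share only a number. Deviations of number 1 correlated at 0.35 between Fendrr control and shFendrr, 0.303 between retinoic acid control and shNr2f1as and -0.0191 for shPou3f3os. With the replicate block, 2 genes were called in shNr2f1as (Bnip3l, Higd1a) and 3 in shPou3f3os (Bnip3l, Higd1a, Hk2); the block moved no other count.

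Of the values of single named genes, 807 kept direction and side of the threshold, 50 lost the call, 8 gained it and 1 reversed. Pdk1 in shEVX1, at 11.8 and 12.7 FPKM, was above its CJ9 control at 8.76. With both day-4 controls as 1 group, which adds the CJ7 control at 17.9, the log2 change was -0.03864. Rescaling moved the median of all entries most for day 5 against day 4, by -0.0657 on the log2 scale. A filter on the 7 controls alone, chosen after seeing the data, also called 18 genes between cultures. Absolute depth is unknown, so sampling error of low genes such as Adm, Car9 and Ankrd37 could not be given.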
